A study of Mus musculus with 10 samples.

Results

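The immediate early genes Nr4a1, Nr4a2, Egr1, Egr2, Egr3, Ier2, Ier3, Ier5, Klf4 and Klf6 were analysed in splenic CD8+ DCs. They were chosen by symbol as 10 of the 10767 genes of the deposited mRNA-sequencing table, and all 10 were found in it. CD8+ cDC1, the conventional DCs that cross-present antigen to CD8+ T cells, were sorted as CD11c+MHCII+CD8+CD11b- cells from spleens of untreated, sex- and age-matched Ppef2+/+ and Ppef2-/- mice. Each genotype had 5 sorts, every sort pooled 3 mice, and each sort gave 1 library per genotype. Ppef2-/- mice carried the knockout-first allele, a lacZ gene trap between exons 4 and 5 with a floxed exon 5, in every cell of the body. They came from gene-targeted ES cells and were crossed to C57BL/6, and Ppef2+/+ mice were the wild-type controls. Ppef2 is a phosphatase with calcium-binding EF-hands, and the comparison asked whether its absence alters gene expression in these cells. Both libraries of every sort were processed after enzymatic digestion of the spleens and FACS, so transcription before and after removal of the organ cannot be told apart.

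Immediate early genes are transcribed shortly after a cell receives a signal, without the need for new protein, and many of their mRNAs are short-lived. Kinases of the ERK pathway and calcium signals act on factors that already sit on their promoters, such as SRF with its ternary complex factors at CArG boxes and CREB at cAMP response elements. In DCs they respond to microbial products and to cytokines. Nr4a1 and Nr4a2 are orphan nuclear receptors, Egr1, Egr2 and Egr3 are zinc finger transcription factors, and Klf4 and Klf6 are zinc finger factors of the Krüppel-like family. Ier2 and Ier5 belong to a family of nuclear proteins that rise after growth factor signals, and Ier3 encodes a small protein linked to the control of apoptosis.

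The 250 bases upstream of a start site are shown for Nr4a1, Nr4a2 and Egr2, because Nr4a2 and Egr2 had the widest range over the sorts among the 4 members in which this range could be determined, and Nr4a1 is the closest relative of Nr4a2 among the members. Sequences are from RefSeq on GRCm38.p6, in which 7 of the 10 members were matched. They are written 5′ to 3′ on the strand of the gene, and capitals mark TGACG on either strand, the core of a cAMP response element, and CArG boxes.
Nr4a1 (chr15:101266596-101266845, plus strand): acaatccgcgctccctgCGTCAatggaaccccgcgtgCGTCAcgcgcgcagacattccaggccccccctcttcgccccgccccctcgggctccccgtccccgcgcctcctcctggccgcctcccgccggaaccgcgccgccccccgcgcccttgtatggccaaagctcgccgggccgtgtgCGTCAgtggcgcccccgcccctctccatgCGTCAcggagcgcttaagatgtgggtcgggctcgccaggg
Nr4a2 (chr2:57124004-57124253, minus strand): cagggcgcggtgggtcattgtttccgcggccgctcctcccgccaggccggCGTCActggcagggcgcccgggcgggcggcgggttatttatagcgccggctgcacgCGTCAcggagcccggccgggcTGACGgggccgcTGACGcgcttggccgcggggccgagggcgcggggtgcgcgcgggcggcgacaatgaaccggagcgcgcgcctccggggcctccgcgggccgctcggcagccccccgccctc
Egr2 (chr10:67537619-67537868, plus strand): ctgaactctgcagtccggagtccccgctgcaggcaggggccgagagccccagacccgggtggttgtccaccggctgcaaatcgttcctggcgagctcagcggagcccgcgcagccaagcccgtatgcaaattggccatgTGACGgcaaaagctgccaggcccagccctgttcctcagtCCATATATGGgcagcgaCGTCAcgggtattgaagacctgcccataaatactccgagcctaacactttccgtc
None of these windows overlapped a GENCODE exon. The windows of Nr4a1 and Egr2 lie inside the span of longer annotated transcripts, in introns. Nr4a1 and Nr4a2 held 4 copies of TGACG each, whereas 17.8% of 32851 RefSeq windows of the same length held this motif at all and 0.137% held it at least 4 times. The Egr2 window held TGACG 2 times and 1 CArG box, which 1.47% of all windows held. RefSeq lists 5 starts for Egr2, and the most upstream window (chr10:67535249-67535498) held neither motif. In the window of Klf4 there was 1 TGACG, and in those of Klf6, Ier3 and Ier5 there was none, nor did these 4 genes hold a CArG box. The windows were not matched for base composition, and motif matches are a description of the letters only.

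Most of these genes were among the abundant mRNAs of CD8+ DCs. By the mean normalized count over 10 libraries, Klf6 ranked 42nd of 10767 genes with 8934, Nr4a1 ranked 92nd with 5509, Ier5 ranked 106th with 5084 and Egr1 ranked 135th with 4073. Klf4 (1968, rank 433), Ier2 (1210.3, rank 828) and Nr4a2 (829.9, rank 1283) followed. Egr3 (505, rank 2256) and Egr2 (206, rank 4794) were lower, and Ier3 was the least abundant (94.1, rank 7033). Levels of different genes were compared per kb of exon length. Klf6 had 2035 normalized counts per kb, Nr4a1 1570 and Ier5 1552, which gave ranks 94, 137 and 140 of the 10703 genes with a known length. Nr4a1 and Ier5 differed on this scale by less than the spread of either gene between libraries. Egr1 (908 per kb), Ier2 (795 per kb) and Klf4 (646 per kb) came next. Nr4a2 (204 per kb), Egr3 (115 per kb), Ier3 (83.2 per kb) and Egr2 (60.5 per kb) formed the lower end. No exon of a member overlapped an exon of another annotated gene. The members lie on different chromosomes of GRCm38, for example Nr4a1 at chr15:101254269-101274795, Nr4a2 at chr2:57106830-57124003, Ier3 at chr17:35821684-35822923 and Klf6 at chr13:5861482-5870394.

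The deposited values have a property that bears on each comparison. In every gene without a value at the floor of 1, the values of the 2 genotypes in a sort sum to a constant that does not change over the 5 sorts. The mean of each sort is therefore missing, and a library that is high in a sort is mirrored by its partner. SDs of the deposited normalized counts lack the spread between sorts. In these genes they are the same in both genotypes apart from rounding, so they are not 2 separate spreads. SEs by limma without a block rest on the same values and do not count the missing sort means. Whole reads were calculated back for 9624 genes with all values under 1000, among them Nr4a2, Egr2, Egr3 and Ier3. The other 6 members were too abundant for this. Within these 9624 genes, Ppef2+/+ libraries held 1396223 to 2273415 reads and Ppef2-/- libraries 1507951 to 4409096 reads. The Ppef2-/- library was 2.95, 2.31, 1.60, 0.875 and 0.727 times as deep as the Ppef2+/+ library in sorts 1 to 5. Ppef2 itself had 95 to 228 reads in Ppef2+/+ and 0 to 8 reads in Ppef2-/- libraries. The 12 cDC1 markers, among them Xcr1, Clec9a, Cd8a and Irf8, were all present.

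All 10 members had a higher mean in Ppef2-/- than in Ppef2+/+ DCs, with a median log2 fold change of 0.16 compared to 0.00 over all genes, of which 50.5% were above 0. Most of these differences were small, and only Ier3 passed the test without a block. With limma on log2(normalized count + 1) and no term for the sort, 1 of 10 members had an adjusted p under 0.05, compared to 0.957% of all genes. In the same fit, 6 members were higher at an unadjusted p under 0.05, compared to 9.2% of all genes, and 0 were lower, compared to 8.33%. With the sort as a block, which counts the degrees of freedom that the missing sort means took up, 0 of 10 members and 0.00929% of all genes (1 gene) had an adjusted p under 0.05. In the blocked fit, 5 members were higher at an unadjusted p under 0.05 (Ier3, Klf4, Egr1, Klf6 and Nr4a2), compared to 2.3% of all genes, and 0 were lower, compared to 1.99%. By single sorts, 6 of 10 members were higher in Ppef2-/- DCs in at least 4 of 5 sorts, compared to 19.2% of all genes. In bulk libraries, more cells that express a gene and more mRNA per cell cannot be told apart.

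**Figure D1:**
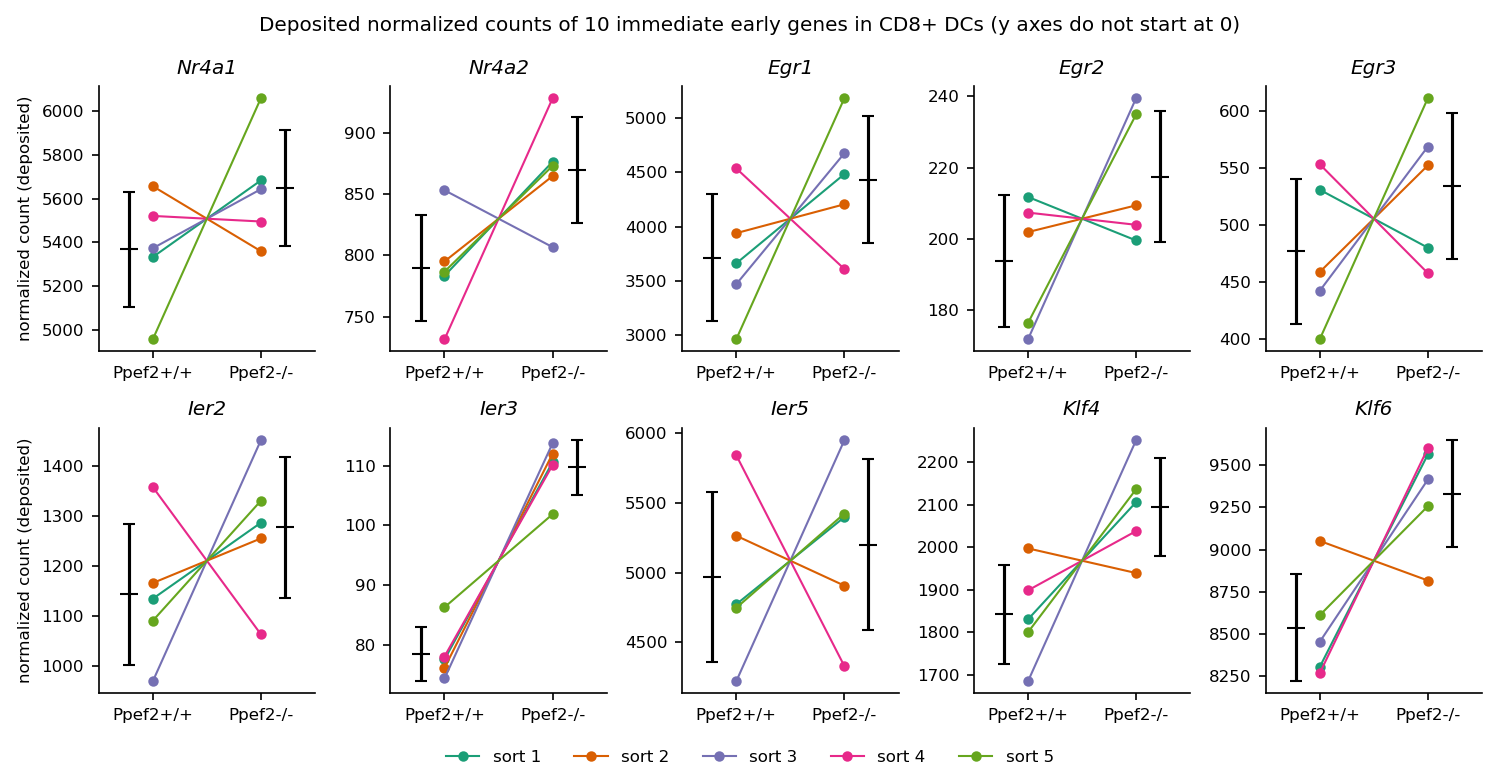
Deposited normalized counts (y axes, not starting at 0) of the 10 members in Ppef2+/+ and Ppef2-/- CD8+ DCs. Points are libraries, lines join the libraries of a sort, and black bars are the mean ± SD of 5 libraries. The lines of each gene cross in 1 point because the sort means are missing from the values. Genotypes do not overlap for Ier3 (74.4 to 86.3 against 102 to 114) and overlap for the other 9 genes. As the sums of a sort are constant, a gene with the same direction in all sorts cannot overlap.

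Ier3 was higher in Ppef2-/- DCs in 5 of 5 sorts, as were 3.26% of all genes. Because the sums of a sort are constant, the deposited values of such a gene cannot overlap between genotypes, so this separation is no further result. From sort 1 to sort 5, Ppef2+/+ libraries had 77.6, 76.2, 74.4, 78.1 and 86.3 normalized counts. The Ppef2-/- libraries had 111, 112, 114, 110.1 and 102 normalized counts. The difference was smallest in sort 5. The means were 78.5 ± 4.58 and 110 ± 4.58 (SD, n = 5), a log2 fold change of 0.48 (SE 0.06) with an adjusted p of 0.018 by limma without a block. With the sort as a block, the SE was 0.12 and the adjusted p was 0.84 by limma. The exact sign-flip test over 5 sorts gave p = 0.0625, two-sided, which is the smallest p that 5 pairs allow. The adjusted p also rose to 0.060, 0.058, 0.060 and 0.052 when the Ppef2+/+ library of sort 2 or 3 or the Ppef2-/- library of sort 2 or 3 was left out. As reads, Ier3 had 40, 50, 43, 98 and 115 in Ppef2+/+ and 189, 176, 111, 116 and 95 in Ppef2-/- libraries. With depth taken into account and the sort means put back, Ppef2+/+ libraries had 54.8, 68.2, 64.6, 90.6 and 115 normalized counts. The Ppef2-/- libraries had 87.8, 104, 104, 123 and 130.1 normalized counts on this scale. The SDs on it were 24.0 in Ppef2+/+ and 16.8 in Ppef2-/- libraries. The genotypes then overlapped, like those of all but 0.54% of the 9624 genes, as sorts 4 and 5 were high in both, although the ratio of Ppef2-/- to Ppef2+/+ was above 1 in every sort (1.60, 1.53, 1.61, 1.35 and 1.14). On these reads, limma's voom with the sort as a block gave a log2 fold change of 0.48 (SE 0.14) with an adjusted p of 0.71, and 0 of 4 members were called in this fit, compared to 0.0208% of 9624 genes. The ratio was largest in the sorts in which the Ppef2-/- library was deeper, and the part of depth in this difference was not tested.

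Among the Krüppel-like factors, Klf4 and Klf6 were each higher in Ppef2-/- DCs in 4 of 5 sorts. Klf4 had 1831, 1997, 1685, 1899 and 1800.5 normalized counts in Ppef2+/+ and 2106, 1939, 2251, 2038 and 2136 in Ppef2-/- libraries. Only in sort 2 was the Ppef2-/- library the lower of the pair, and the genotypes overlapped because of that pair. The log2 fold change was 0.19 (SE 0.05), with an adjusted p of 0.081 without and 0.995 with the block. Klf6, the most abundant member, had 8305, 9052, 8453, 8268 and 8611 normalized counts in Ppef2+/+ and 9564, 8817, 9415, 9601 and 9258 in Ppef2-/- libraries. As for Klf4, the pair of sort 2 went the other way. The log2 fold change of Klf6 was 0.13 (SE 0.03) with an adjusted p of 0.076 without and 0.995 with the block by limma. With libraries scaled to equal totals, the adjusted p of Klf6 was 0.049 by limma without a block. The exact sign-flip test gave p = 0.125 for both genes, where the smallest p that 5 pairs allow is 0.0625.

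Among the Nr4a receptors, Nr4a2 was higher in Ppef2-/- DCs in 4 of 5 sorts and Nr4a1 in 3 of 5. Nr4a2 had 783, 795, 853, 731 and 787 normalized counts in Ppef2+/+ and 877, 865, 807, 929 and 873 in Ppef2-/- libraries. The exception was sort 3, and the genotypes overlapped. The log2 fold change was 0.14 (SE 0.04, adjusted p = 0.13 by limma without and 0.995 with the block). Nr4a1 had 4958 to 5657 normalized counts in Ppef2+/+ and 5360.0 to 6060 in Ppef2-/- libraries, with a log2 fold change of 0.07 (SE 0.04, adjusted p = 0.36 by limma). The pair of sort 5 carried much of this difference, with 1102 normalized counts, compared to -297 to 350.4 in the other sorts. Without the Ppef2+/+ or the Ppef2-/- library of this sort, the log2 fold change of Nr4a1 was 0.05. Without both libraries of sort 5, its mean within-sort difference was 74.5 normalized counts, compared to 280 with all sorts.

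The differences of the Egr factors changed sign between sorts, and those of Egr1 and Egr3 were wide. Egr1 had 3661, 3940, 3468, 4537 and 2960 normalized counts in Ppef2+/+ and 4485, 4206, 4677, 3608 and 5186 in Ppef2-/- libraries. In sort 4 the Ppef2+/+ library was the higher, whereas in sort 5 the order was opposite and the difference was the widest. The log2 fold change was 0.26 (SE 0.11) with an adjusted p of 0.24 by limma without and 0.995 with the block. Egr3 ranged from 400.1 to 553 normalized counts in Ppef2+/+ and from 458 to 611 in Ppef2-/- libraries. Its log2 fold change was 0.16 (SE 0.09, adjusted p = 0.40 by limma), and 0.10 without the Ppef2+/+ library of sort 5. Without both libraries of sort 5, its mean within-sort difference was 18.3 normalized counts, compared to 56.8 with all sorts. Egr2 ranged from 172 to 212 and from 199.6 to 239 normalized counts, with a log2 fold change of 0.17 (SE 0.07, adjusted p = 0.27 by limma). Egr2 and Egr3 were higher in Ppef2-/- DCs in 3 of 5 sorts, and the genotypes overlapped for both.

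Ier2 and Ier5 showed the same change of sign in sort 4 as Egr1. Ier2 had 1134, 1166, 969, 1357 and 1090.4 normalized counts in Ppef2+/+ and 1286, 1255, 1451, 1063 and 1330.2 in Ppef2-/- libraries. Ier5 had 4772, 5263, 4222, 5839 and 4747 normalized counts in Ppef2+/+ and 5396, 4906, 5947, 4330 and 5422 in Ppef2-/- libraries. For both genes, the highest Ppef2+/+ library was that of sort 4. The constant sums of a sort make its partner the lowest Ppef2-/- library. The log2 fold change was 0.16 (SE 0.09) for Ier2 and 0.07 (SE 0.09) for Ier5, with adjusted p-values of 0.37 and 0.75 by limma without a block. Without the Ppef2+/+ library of sort 3, the log2 fold change was 0.10 for Ier2. Without both libraries of sort 3, the mean within-sort difference of Ier2 was 46.7 normalized counts, compared to 133.7 with all sorts. For Ier5 the log2 fold change was 0.01 without the Ppef2+/+ and 0.02 without the Ppef2-/- library of sort 3, and 0.13 without either library of sort 4.

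**Figure D2:**
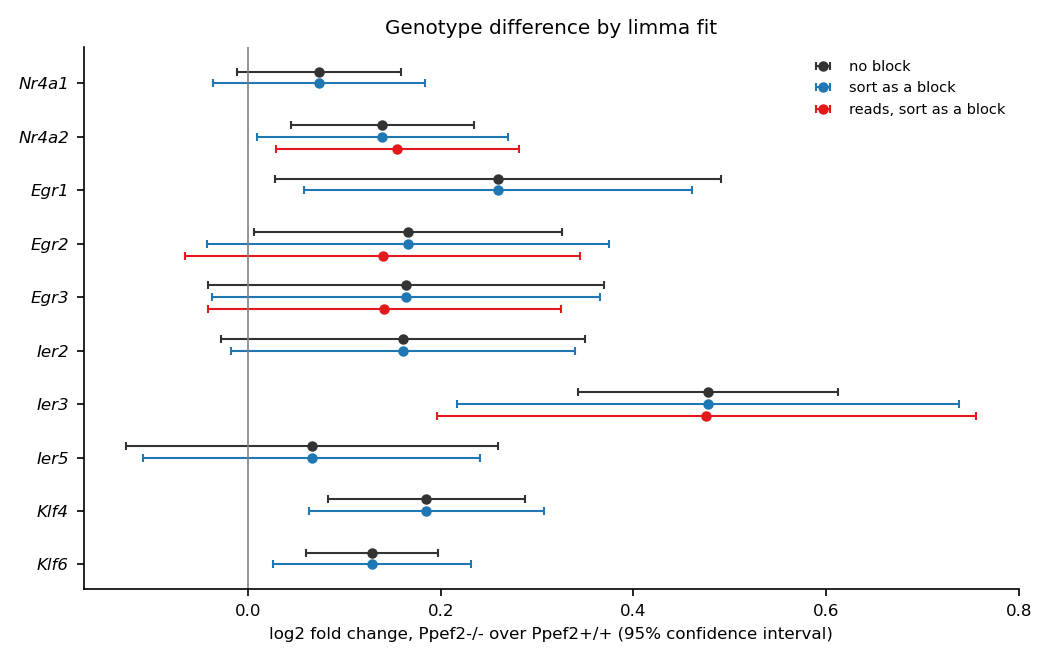
Log2 fold change of Ppef2-/- over Ppef2+/+ (x axis) of each member with its 95% confidence interval, by limma without a block (black), limma with the sort as a block (blue) and voom on reads with that block (red, the 4 members resolved to reads). All estimates lie above 0, and those of limma without and with the block are the same by construction. The intervals of Ier3, Klf4, Klf6, Egr1 and Nr4a2 exclude 0 in each fit shown for them, before adjustment over all genes.

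Within the sorts, the members differed in unequal ways. The difference of Ppef2-/- minus Ppef2+/+ was expressed as a percentage of the gene's mean over all libraries. In sort 5 it was above 0 for 10 of 10 members, with a median of 18.4%, and in sort 3 for 9 of 10, with a median of 29.2%. Sort 1 had 8 of 10 members above 0 (median 12.4%) and sort 2 had 6 of 10 (median 5.09%). In sort 4 only 4 of 10 members were above 0 (median -1.06%). Over all genes, 49.0 to 52.3% were above 0 in a sort, with medians between -0.38 and 0.91%. In sort 4, the difference was -22.8% for Egr1, -18.8% for Egr3, -24.3% for Ier2 and -29.7% for Ier5, whereas it was 34.0% for Ier3, 23.8% for Nr4a2 and 14.9% for Klf6. In sort 5, Egr1 differed by 54.7% and Egr3 by 41.7%, and in sort 3, Ier2 differed by 39.8% and Ier5 by 33.9%.

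Egr1, Egr3, Ier2 and Ier5 were therefore the members with the widest spread of the difference over sorts. The SD of the difference was 28.6% of the mean for Egr1, 25.1% for Egr3, 23.3% for Ier2 and 24.0% for Ier5. Between 97.3 and 99.0% of the genes within 2-fold of the same level had a smaller SD. For Ier3 the SD was 9.74%, and only 7.78% of the genes at its level had a smaller SD. Klf6 (7.11%) was near the median of the genes at its level (7.28%). The SD was 9.55% for Nr4a1, 10.4% for Nr4a2, 17.9% for Egr2 and 11.8% for Klf4. Between 63.8 and 85.7% of the genes at the level of these members had a smaller SD.

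**Figure D3:**
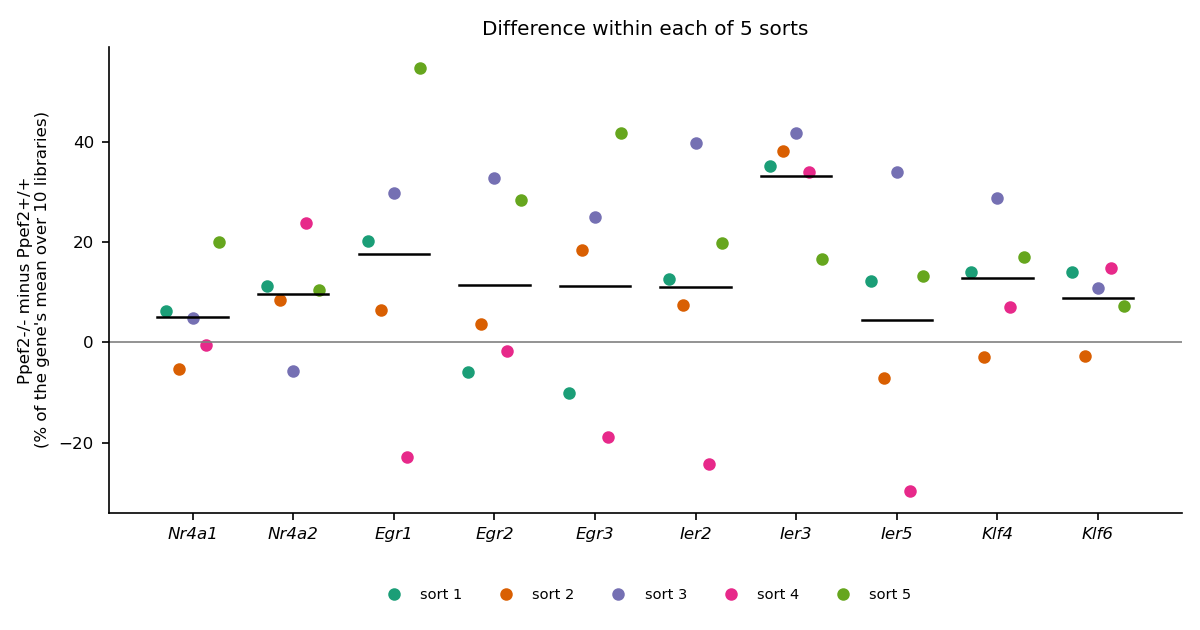
Difference of Ppef2-/- minus Ppef2+/+ within each sort, as a percentage of the gene's mean over 10 libraries (y axis), for the 10 members (x axis). Points are sorts and black lines the mean over 5 sorts. In sort 4 Egr1, Egr3, Ier2 and Ier5 lie between -18.8 and -29.7%, whereas Ier3 is above 0 in all sorts.

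Markers of other cells were examined beside these differences. All 5 cDC2 markers were in the table (Sirpa, Itgam, Clec4a4, Esam and Cd209a). With the sort means put back, their summed level was 516 to 658 normalized counts in Ppef2+/+ and 470.3 to 746 in Ppef2-/- libraries. In sort 4 the sum was 658 in the Ppef2+/+ and 470.3 in the Ppef2-/- library, and in sort 5 it was 544 and 746, which is the direction that Egr1 and Egr3 had in these sorts. In sorts 1 to 3 the cDC2 sums were 516, 564 and 561 in Ppef2+/+ and 505, 550 and 565 in Ppef2-/- libraries. Egr1 differed in these sorts by 20.2, 6.54 and 29.7% of its mean. Sirpa had the highest level of the 5 cDC2 markers (345 ± 69.1 in both genotypes, deposited values, SD, n = 5). The 5 pDC markers summed to 1016 to 1341 in Ppef2+/+ and 938 to 1069.5 in Ppef2-/- libraries, and this sum was lower in Ppef2-/- in every sort. Of the 5 markers, 1 had a higher mean in Ppef2-/- (Ccr9, 239 in Ppef2+/+ and 243 in Ppef2-/- libraries). Tcf4, a transcription factor of pDCs, was the only called gene among the markers, with 423 ± 19.6 normalized counts in Ppef2+/+ and 342 ± 19.6 in Ppef2-/- libraries (SD, n = 5, log2 fold change -0.31, SE 0.05, adjusted p = 0.018 by limma without and 0.71 with the block). Of the pancreatic acinar markers, 8 of 12 were in the table, with sums of 0.924 to 121 in Ppef2+/+ and 1.87 to 461 in Ppef2-/- libraries, the highest in the Ppef2-/- libraries of sorts 1 and 5 and the Ppef2+/+ library of sort 2. The 8 macrophage and monocyte markers summed to 2689 to 3076 in Ppef2+/+ and 2774 to 3106 in Ppef2-/- libraries. In sort 4 this sum was 2870 in the Ppef2+/+ and 3106 in the Ppef2-/- library, and in sort 5 it was 2990 and 2774. This direction was opposite to that of Egr1 and Egr3 in these sorts. Of the T cell markers, Cd4 alone was in the table, at 194 to 219 in Ppef2+/+ and 137 to 256 in Ppef2-/- libraries. In sorts 4 and 5 it had the direction of the cDC2 sum. The study also names CD4 as a marker of cDC2. Of the B cell markers, 2 of 6 were in the table, with sums of 153 to 198 in Ppef2+/+ and 170.1 to 185 in Ppef2-/- libraries. For neutrophils 2 of 5 markers were in it (17.6 to 34.1 and 12.7 to 26.5), and for erythroid cells and platelets 3 of 6 (98.6 to 262 and 158 to 209). In sorts 4 and 5, the B cell sum and the erythroid and platelet sum had the direction of the macrophage and monocyte sum. Cd79a, Cd3e, S100a8 and Ly6g were not among the genes of the table. The part of such cells in the differences of the members was not tested.

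The sorts were compared in the 4 members resolved to reads, with the sort means put back. In sorts 1 to 5, Nr4a2 had 311, 447, 1203, 1433 and 556 normalized counts in Ppef2+/+ libraries. In the Ppef2-/- libraries of the same sorts it had 404, 517, 1156, 1631 and 642 normalized counts. Sorts 3 and 4 were high and sorts 1 and 2 were low in both genotypes, which overlapped widely. The mean of sort 4 was 4.29 times that of sort 1, and this ratio of the highest to the lowest sort ranked 19th of 7349 genes with a mean of at least 50. The median ratio of these genes was 1.23.

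Egr3 and Egr2 had a smaller range. Egr3 had 389, 391, 523, 736 and 347 normalized counts in Ppef2+/+ and 338, 484, 649, 640.4 and 557 in Ppef2-/- libraries. Egr2 had 125, 192, 171, 278 and 203 in Ppef2+/+ and 112, 199.7, 239, 275 and 262 in Ppef2-/- libraries. Egr3 had the same order of sort means as Nr4a2, and both Egr genes were lowest in sort 1 and highest in sort 4, with a ratio of 2.33 for Egr2 and 1.89 for Egr3. Ier3 was also lowest in sort 1, but highest in sort 5, with a ratio of 1.72. An F test of the sort term in limma's voom, with the genotype in the model, was chosen after these values had been seen. It called Nr4a2 (adjusted p = 3e-15), Egr2 (adjusted p = 1.3e-05) and Egr3 (adjusted p = 2.5e-05) but not Ier3 (adjusted p = 0.080), 3 of 4 members, compared to 7.8% of 9624 genes. Nr4a2 ranked 3rd of 9624 genes by this test. Without sort 1, the adjusted p of Egr2 was 0.13, while Nr4a2 and Egr3 were called whichever sort was left out. The labels number the sorts and give no date, so whether the sorts differ in the mice, the digestion or the library preparation cannot be told apart.

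**Figure D4:**
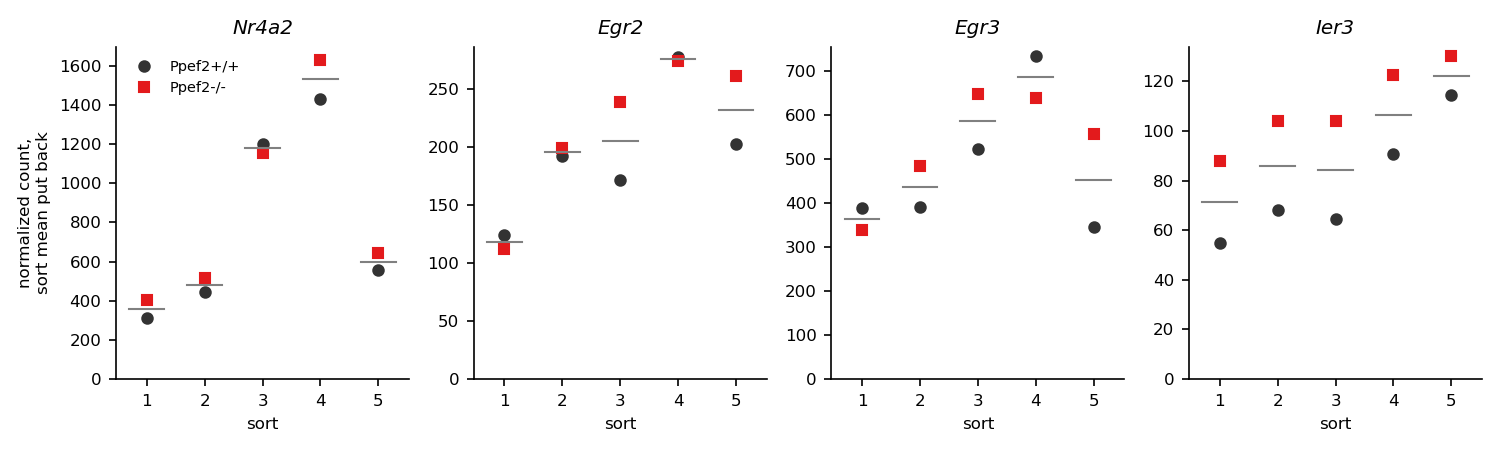
Normalized counts with the sort mean put back (y axes, starting at 0) of Nr4a2, Egr2, Egr3 and Ier3 in sorts 1 to 5 (x axes). Black circles are Ppef2+/+ and red squares Ppef2-/- libraries, and grey lines are the mean of both. Nr4a2 is at or above 1156 in all libraries of sorts 3 and 4 and at or below 642 in the other sorts, whereas Ier3 is higher in Ppef2-/- within every sort.

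A list of 38 other immediate early genes was examined in the same way, of which 36 were in the table. In the genotype comparison, 10 of 36 were higher and 1 was lower in Ppef2-/- at an unadjusted p under 0.05 by limma without a block, compared to 9.2 and 8.33% of all genes. With the block, 7 were higher and 0 were lower, compared to 2.3 and 1.99% of all genes. The median log2 fold change of the list was 0.05. Dusp2, a nuclear phosphatase of MAP kinases, rose from 655 ± 24.8 to 737 ± 24.8 normalized counts (SD, n = 5), a log2 fold change of 0.17 (SE 0.04) with an adjusted p of 0.048 by limma without and 0.995 with the block. Socs3, an inhibitor of cytokine signalling, had 78.1 ± 11.6 and 109 ± 11.6 normalized counts (log2 fold change 0.48, SE 0.11, adjusted p = 0.056 by limma without and 0.995 with the block). The kinase Plk3 (log2 fold change 0.27), the AP-1 subunit Fosb (0.16) and the NF-κB regulator Nfkbiz (0.12) had adjusted p-values of 0.074, 0.11 and 0.11 by limma without a block. With the block, the adjusted p was 0.995 for each of them.

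By sort, 11 of the 12 resolved genes of this list with a mean of at least 50 were highest in sort 3 or 4, compared to 39.4% of 7349 genes. The sort term was called for 10 of these 12 genes, compared to 7.8% of all resolved genes. Fosl2, an AP-1 subunit, had sort means of 75.3, 107, 332, 447 and 143 normalized counts, listed from sort 1 to sort 5. Maff, a small MAF factor, had 89.4, 134, 346, 357 and 179 normalized counts. Plk2, a polo-like kinase, had 99.4, 137, 461, 374 and 227 and Dusp5, a phosphatase of ERK, had 138, 164, 479, 461 and 239 normalized counts. As for Nr4a2, sorts 3 and 4 were high, sort 5 was intermediate and sort 1 was the lowest in each of these 4 genes. Myc was the gene not highest in sort 3 or 4, as it was highest in sort 1 (126) and lowest in sort 3 (83.7). Arc was highest in sort 3 (87.0) but lowest in sort 4 (51.2). The sort terms of Myc and Arc had adjusted p-values of 0.25 and 0.17 by limma's voom. The 4 genes above, Myc and Arc were named after their values had been seen.

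**Figure D5:**
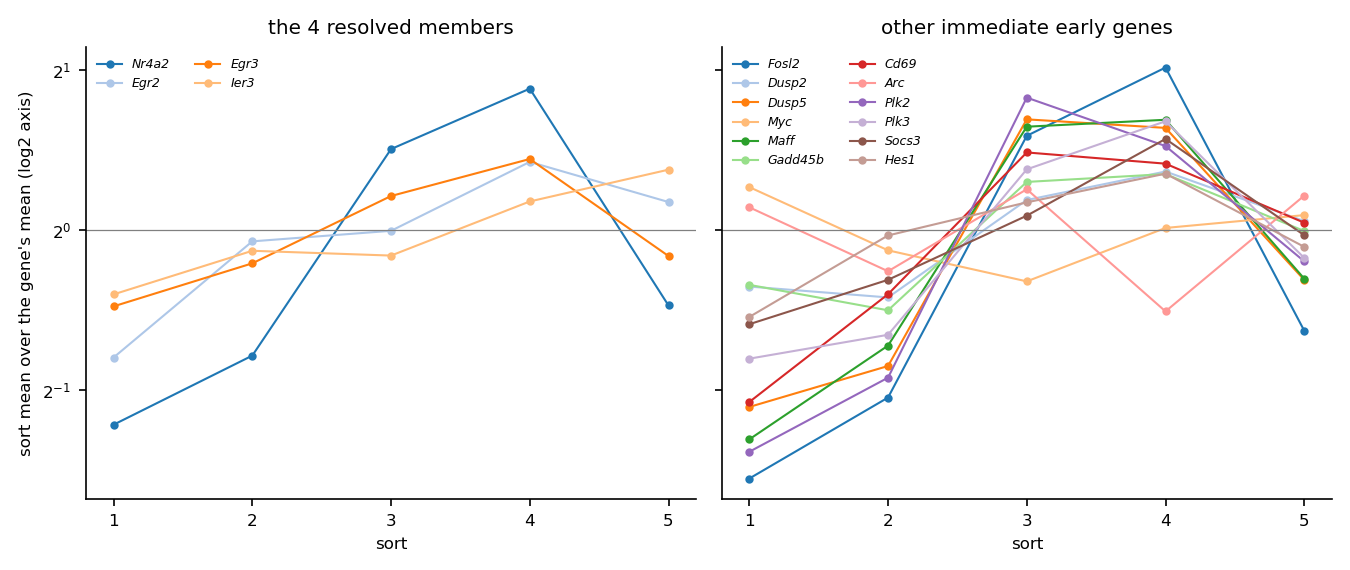
Mean of each sort over the gene's mean (y axis, log2 scale) in sorts 1 to 5 (x axis) for the 4 resolved members (left) and the 12 resolved genes of the list of other immediate early genes (right). Nr4a2 and most of the other immediate early genes are highest in sorts 3 and 4, whereas Ier3 is highest in sort 5 and Myc in sort 1.

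Relatives of the members and their upstream regulators were counted by the same tests. Of the 15 other Klf genes, 9 were in the table, and 2 were higher and 2 lower at an unadjusted p under 0.05 by limma without a block, compared to 9.2 and 8.33% of all genes, and 0 had an adjusted p under 0.05. Among the 8 of them resolved to reads, the sort term was called for 5, compared to 7.8% of all resolved genes. Klf13 had sort means of 259, 313, 668, 612 and 368 normalized counts and Klf3 of 303, 329, 544, 573 and 325, again with sorts 3 and 4 high. Nr4a3, the third receptor of its family, had 1700.1 ± 96.5 and 1767 ± 96.5 normalized counts (SD, n = 5, adjusted p = 0.56 by limma), and Ier5l and Ier3ip1 were not called either. Egr4 was not in the table. Of 21 measured ERK pathway and RSK kinase genes, 1 was higher and 4 were lower at an unadjusted p under 0.05, compared to 9.2 and 8.33% of all genes. Among the lower genes were the kinases Rps6ka5 (log2 fold change -0.22) and Rps6ka2 (-0.23). Their adjusted p-values were 0.075 and 0.11 by limma without a block and 0.995 for both genes with the block. Of 18 genes for SRF, its cofactors, CREB and MEF2 factors, 0 were higher and 1 was lower at an unadjusted p under 0.05 (Atf1, log2 fold change -0.12), and 0 had an adjusted p under 0.05. Nab2, a corepressor of Egr factors, had 123 ± 13.4 normalized counts in Ppef2+/+ and 98.6 ± 13.4 in Ppef2-/- libraries (log2 fold change -0.32, SE 0.10, adjusted p = 0.13 by limma without and 0.995 with the block). The sort term was called for 2 of 19 resolved ERK pathway genes and 3 of 16 resolved genes of the promoter factors, compared to 7.8% of all resolved genes.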

How the data were processed

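Messenger RNA was measured in 5 Ppef2+/+ and 5 Ppef2-/- libraries of sorted splenic CD8+ DCs (50 bp single-end reads of unstranded poly-A libraries), assigned to genotype and sort by their labels. Replicates were separate sorts of 3 pooled mice. The authors aligned reads to mm10, counted them per RefSeq gene in Partek 6.6, normalized with DESeq2, raised values under 1 to this floor and dropped genes with both genotype means under 10. The submitters' processing notes name TopHat2 2.0.3 and R 3.0.2, whereas the methods name HISAT. The deposited values are this normalized count signal. All 10 columns were used. No source used here names the step that took out the sort means.

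The members, gene lists and tests were chosen with earlier results of these data known. Values were solved for whole reads, taking each as reads multiplied by what 1 read is worth, less an amount common to the sort. Of 9627 genes with all values under 1000, 9624 had exactly 1 solution and 3 had none, and 1140 genes were not tried. Genotypes were compared with limma 3.58.1 in R 4.3.3 (eBayes with a trend) on log2(normalized count + 1), which understates changes of low genes, by two-sided tests adjusted after Benjamini-Hochberg over 10767 genes, without a block, like the one-way model of the study. Alternatives were the sort as a block, voom on reads with that block, pseudocounts of 0.5 and 10, a mean of at least 50, other scalings, eBayes without a trend, put-back sort means and each library left out. The sort numbers were used as pairs: deviations from the genotype means correlated with r = -1.00 in each sort as deposited, and with r = 0.06 to 0.47 with the sort means put back. The exact test exchanged the libraries within sorts.

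In simulated data on 9624 genes with 200 changed between genotypes, limma without a block recovered 98.5% and called 233 unchanged genes. The blocked fit recovered 99% with 1 unchanged gene, and voom 99% with 10. The sort term recovered 89% of genes doubled in sort 3, with 8 unchanged genes. Members were named with values, as were up to 5 genes per list with the smallest p, any called gene of a list, and the 10 genes most like the resolved members by Pearson correlation. Other genes were named after their values were seen. Lengths were those of GENCODE M21 exons.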

Additional observations from a re-analysis of the deposited data

How the results depend on the processing

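The log2 fold change of the members was above 0 in all 178 values computed over 19 alternatives, of which 170 kept their side of the threshold. The block on deposited values, the filter on the mean and eBayes without a trend leave the log2 fold change unchanged by construction. Pseudocounts and scalings changed it little, so the count of 178 is not a count of separate results. The number of genes with an adjusted p under 0.05 was 103 by limma without a block and 1 with the replicate block of the sort, 2 by voom on reads with that block, 1 with the sort means put back and 193 without the trend. Scaling the libraries to equal totals gave 87 such genes. The number was 1 to 23 when each library was left out, for which a smaller number of samples is part of the construction. The number of members called was 1 without a block, 0 with the replicate block, 0 of 4 by voom on reads with the block, 0 of 4 with the sort means put back, 2 with libraries scaled to equal totals (Ier3 and Klf6, adjusted p = 0.049 for Klf6), and 0 to 1 when each library was left out. The adjusted p of Ier3 was 0.84 in the paired fit, 0.71 on reads and 1.00 with the sort means put back, and 0.017 to 0.060 over the libraries left out, under 0.05 in 6 of 10. The block changed no other call of a member. The median log2 fold change over the members was 0.13 to 0.19 when each library was left out. The mean within-sort difference of Ier5, 232 normalized counts, was between -142 (without sort 3) and 667 when each sort was left out. The sort term was called for 482 to 908 genes and 2 to 3 of 4 members when each sort was left out, compared to 751 genes and 3 members with all sorts, and for 630 genes and 3 members by limma on log2 levels. Apart from construction, the cause of these changes was not tested.

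Ier3 had 40 to 189 reads per library, so its ratios within a sort carry the widest counting error of the 4 resolved members. For the 6 members with values of 1000 or more, the spread between sorts was not determined, and their SDs are those of the deposited values. With 5 pairs, no single member could pass 0.05 in the exact test. In 28 groups of 5 libraries, the highest or lowest library was past Dixon's critical value in 0.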

Other observations

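The mean profile of the 4 resolved members (standardised log2 normalized counts with the sort means put back) was compared with every other resolved gene over the 10 libraries. The 10 genes most like it were Mex3b (Pearson r = 0.96), Pnrc1 (0.94), Fars2 (0.94), Atp6v0c-ps2 (0.94), Tank (0.93), Unc45a (0.93), Socs3 (0.93), Ptbp2 (0.92), Vmp1 (0.92) and Polb (0.92). These values describe 10 libraries of 5 sorts, which share a sort in pairs and are not independent, and carry no test. Socs3 was on the list of other immediate early genes and the other 9 genes were on none of the lists. Pnrc1, a coregulator of nuclear receptors, had 537, 645, 885, 1020.3 and 699 normalized counts in Ppef2+/+, listed by sort from 1 to 5. In the Ppef2-/- libraries it had 545, 685, 1038, 983 and 869.6 normalized counts. Like Nr4a2, it was highest in sorts 3 and 4 and lowest in sort 1 in both genotypes. Tank, an adaptor of kinases in NF-κB and interferon signalling, had 272, 299.9, 322, 365 and 294 normalized counts in Ppef2+/+ and 296, 355, 380.3, 423 and 360.2 in Ppef2-/- libraries. Tank was higher in Ppef2-/- within every sort, as were Ier3, Fars2, Unc45a, Socs3 and 3.26% of all genes. The 10 genes were picked by likeness to a profile that includes Ier3, so a shared direction is partly built in.

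Among the resolved members, the log2 levels of Nr4a2 and Egr3 had a Pearson r of 0.86 over the 10 libraries and those of Egr2 and Egr3 of 0.78, whereas Ier3 had 0.37 with Nr4a2 and 0.35 with Egr3. These values are again a description without a test.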
